A study of Mus musculus with 40 samples.

Results

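The genes described are 50 genes of G2 and mitosis, chosen by name for their known work in the division machinery: cyclins and CDK1, the mitotic kinases, the spindle checkpoint, the kinetochore, the anaphase promoting complex and its targets, the mitotic kinesins, the cytokinesis machinery, the chromosome condensation proteins and the transcription factor Foxm1. A probe entered when the array annotation gave it 1 of these symbols and when it was detected (detection p-value under 0.01) on at least 3 of the 40 arrays. Of the 50 genes, 47 had at least 1 named probe (95 probes), and 39 genes with 73 probes passed, among 11087 genes and 21740 probes tested in all. Ccnb1, Tacc3 and Mki67 had no named probe and were not analysed here. Ccnb2, Cks2, Nek2, Bub1, Cenpe, Nuf2 and Racgap1 had probes that were detected on 0 arrays, and the probe of Kif20a on 2. The least often detected gene that entered was Hmmr, on 6 arrays, and the next was Ccna2, on 34. Each gene is represented by its tested probe with the highest mean over the 40 arrays, and 21 of the 39 had further tested probes.

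Transcripts of this set are made periodically. In G1 the DREAM complex, in which MuvB proteins meet a pocket protein and an E2F, keeps the genes silent, and later in the cycle the same MuvB core joins B-MYB and then FOXM1 and activates them. DREAM contacts their promoters at the cell cycle homology region, often near CCAAT boxes bound by NF-Y. Because the transcripts are abundant only in cells that pass through G2 and M, their summed level in a culture is widely read as a sign of how many cells are dividing. In the embryonic telencephalon, neural stem cells divide under the influence of FGF-2 and EGF and stop as they differentiate, and Id proteins are known for holding bHLH transcription factors inactive in such cells.

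The promoters show what the genes share in sequence. RefSeq windows from 250 bases before to 50 bases after the start, on build GRCm38.p6, were matched by symbol for 42 of the 50 genes (45 windows). Both of the following motifs were searched on both strands: TTTGAA, the core of the cell cycle homology region, and CCAAT, the NF-Y box, neither of which contains the other. TTTGAA was in 73.3% of the 45 windows and in 17.9% of all 32851 windows, and CCAAT in 80% against 37.4%. Both were in 66.7% against 6.95%, and the variant core TTTAAA in 20% against 13.2%. The 150 bases before the start are printed for Cdk1, Cdc20 and Top2a, which lay lower with most of the set on the A arrays of 144 h described later, and for Bub3, whose level on those arrays was near that of 96 h. The windows are Cdk1, chr10:69352913-69353062 on the minus strand, Cdc20, chr4:118437344-118437493 on the minus strand, Top2a, chr11:99024190-99024339 on the minus strand, and Bub3, chr7:131560220-131560369 on the plus strand. Capitals mark TTTGAA and CCAAT or their reverse complements.
Cdk1: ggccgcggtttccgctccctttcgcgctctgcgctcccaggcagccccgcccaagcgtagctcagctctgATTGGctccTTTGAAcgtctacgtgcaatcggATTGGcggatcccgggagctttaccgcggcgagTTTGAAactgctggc
Cdc20: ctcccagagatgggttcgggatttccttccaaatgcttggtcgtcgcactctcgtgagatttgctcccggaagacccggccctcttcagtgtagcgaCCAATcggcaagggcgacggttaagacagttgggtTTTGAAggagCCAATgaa
Top2a: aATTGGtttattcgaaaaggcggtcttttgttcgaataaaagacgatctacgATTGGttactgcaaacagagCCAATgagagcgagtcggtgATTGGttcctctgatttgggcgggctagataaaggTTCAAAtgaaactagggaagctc
Bub3: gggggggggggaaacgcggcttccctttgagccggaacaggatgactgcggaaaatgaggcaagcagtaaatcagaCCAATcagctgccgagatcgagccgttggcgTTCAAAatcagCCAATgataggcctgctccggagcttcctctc
The first printed base of the TTTGAA match nearest to the start lay 15 bases before it in Cdk1, 18 in Cdc20, 23 in Top2a and 43 in Bub3. The Bub3 promoter thus held the same motifs as the other promoters printed. A match is a stretch of letters and no measured binding.

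All 40 arrays are of RNA from primary neural stem cells, taken from E13.5 mouse telencephalon, on a 129/Svj;C57Bl/6 hybrid background. Both agents' cultures had the same genotype (Id-cTKO-Rosa-Cre-ER): Id1 and Id2 floxed, Id3 null, and Cre-ER, a recombinase that tamoxifen switches on, driven from the broadly active Rosa locus. The vehicle cultures therefore lacked Id3 too, and no culture without the recombinase is among the samples. The growth factors on laminin were EGF and FGF-2, both at 20 ng/ml. The cultures received 250 nM 4-hydroxytamoxifen (4-OHT), which frees the recombinase to delete Id1 and Id2, or ethanol alone (vehicle), and RNA was taken after 6, 12, 18, 24, 48, 96 or 144 h. There were 14 groups of 3 arrays named A, B and C, save that B is not among the samples at 144 h, which leaves 2 arrays a group there. The labels do not say whether the letters are separate cultures or animals, so p-values measure only the spread between these samples, which may be technical. The whole culture was measured, so fewer dividing cells and less RNA per cell cannot be told apart.

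Of the arrays, 39 had between 15884 and 19186 detected probes, and the vehicle array C at 6 h was dim, with 12947. The deletion checks the labels: Id2 fell by 4.94 ± 0.24 (log2 difference from vehicle ± SE) at 96 h (limma, adjusted p = 3.74e-16). Id2 was first called at 18 h (-2.01) and Id1 at 48 h (-1.87, adjusted p = 3.12e-05). At 6 and 12 h neither was called, with -0.56 and -1.21 for Id2 and 0.21 and -0.09 for Id1. Array numbers in the labels form 3 series, whose meaning the labels do not give: A and B of 18 to 144 h, C of 18 to 144 h, and all arrays of 6 and 12 h. Of 12 neural stem cell markers 11 were tested, and their mean level was 8.31 to 8.56 at 6 h with vehicle and 8.87 to 9.05 at 144 h. All 5 microglia markers and 6 of 7 of endothelium, mural cells and fibroblasts stayed untested. Both A arrays of 144 h stand apart from both C arrays of 144 h in the division genes. The mean log2 level of the 39 genes was 6.68 (4-OHT) and 6.25 (vehicle) on the A arrays of 144 h. On the C arrays it was 8.28 and 8.003. Some results that rest on 144 h are also given without both A arrays. That leaves 1 array a group there, with an error taken from other groups, so a count of calls in such a fit decides little. Within groups, the lowest correlation between arrays over the tested probes was 0.950, between the vehicle arrays A and C of 144 h.

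Levels are normalized log2 intensities. The mean level of the genes was highest at 18 to 48 h on arrays A and B, lower at 96 h, and lowest on the A arrays of 144 h. It lay between 8.64 and 8.76 on the 6 arrays of 6 h and between 8.56 and 8.67 at 12 h. At 18, 24 and 48 h the arrays of C lay below those of A and B under both agents. With vehicle at 18 h the mean was 8.89 and 8.84 on A and B and 8.44 on C, and at 24 h with 4-OHT 9.11 and 9.03 against 8.66. At 96 h all 6 arrays lay between 8.19 and 8.44.

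**Figure D1:**
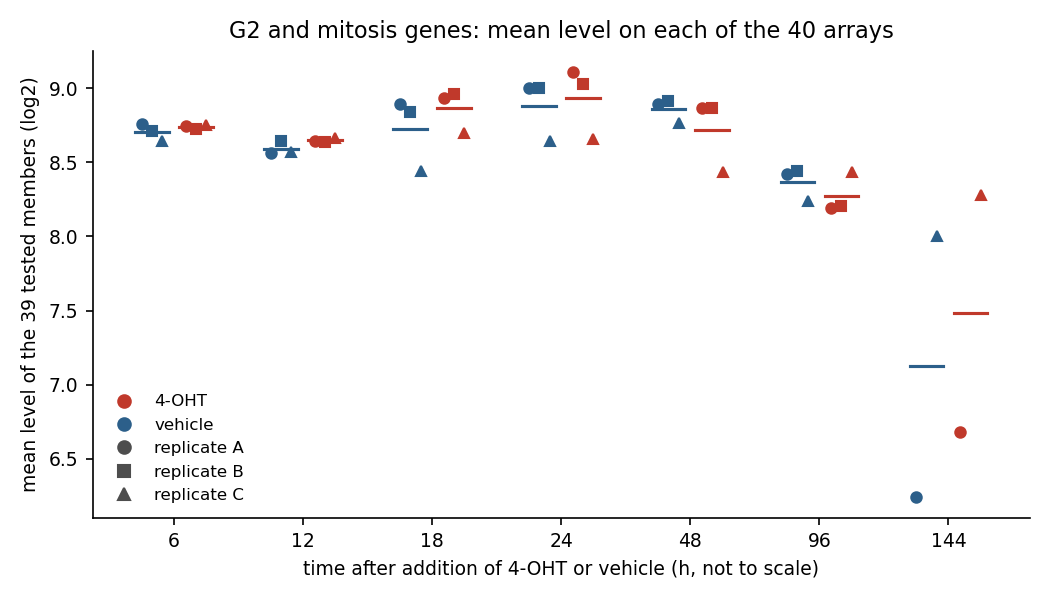
Mean normalized log2 level of the 39 tested G2 and mitosis genes (vertical axis) on each of the 40 arrays by time in hours (horizontal axis, not to scale), with colour for the agent, shape for the replicate letter and a bar at each group's mean. The 2 arrays of replicate A at 144 h, at 6.68 and 6.25, lie below all others.

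The first question is whether the division genes differed between 4-OHT and vehicle. The comparisons of 6 and 12 h precede a called fall of Id1 or Id2. No tested gene of the set passed at any time. In limma's moderated test, with an adjusted p under 0.05 over all 21740 probes, 0 of 39 were called at 6 h (0% of all 11087 genes called), 12 h (0%), 18 h (0.126%), 24 h (0.352%), 48 h (1.21%), 96 h (5.69%) and 144 h (8.03%). At an unadjusted p under 0.05 the counts were 1 at 6 h, 1 at 144 h and 0 at the other times. The F test over all 7 times called 0 of 39 (7.21% of all genes), 5 with the replicate letter within each time as a block (21.4%), and 0 with that letter as a random effect (19.9%). None of the other tested probes of these genes was called either. The median difference, 4-OHT minus vehicle, was -0.03, 0.09, 0.13, 0.03, -0.15 and -0.10 (log2) from 6 to 96 h in that order, beside medians over all genes between -0.01 and 0.03. At 96 h the differences ran from -0.49 for Pttg1 (securin, which holds separase back until anaphase) to 0.23 for Smc2 (a condensin subunit), and 28 of 39 were below 0. By role, they lay between -0.12 and 0.06 for the 5 kinesins, 0.01 and 0.21 for the 3 kinetochore genes, -0.25 and 0.08 for the 4 checkpoint genes, -0.24 and 0.05 for the 6 spindle and cytokinesis genes, and -0.49 and -0.01 for the 5 activators and targets of the anaphase promoting complex. At 96 h the mean level of 10 oligodendrocyte precursor and premyelinating markers was 8.93 to 10.31 with 4-OHT and 7.39 to 8.25 with vehicle. Of these 10, 6 were called higher (5.69% of all genes called in either direction). For the 4 tested of 8 myelin markers the mean level was 7.03 to 8.96 with 4-OHT and 5.40 to 6.10 with vehicle. The part of such cells in the differences of the division genes was not tested.

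How closely this bounds a change depends on the error. The 144 h arrays, with their wide spread, enter the pooled error of every comparison: the median SE of the 39 differences was 0.343 at 6 to 96 h with them and 0.196 without them in the fit, a setting added after the data were seen. The 95% interval lay within 1 log2 unit of no difference for 32 of the 39 genes at 96 h with them and for 37 without them. Without them 0 of 39 were called at each time from 6 to 96 h as well (0%, 0%, 0.198%, 0.559%, 1.47% and 6.88% of all genes). The smallest adjusted p was then 0.16, for Kif2c (the microtubule-depolymerizing kinesin MCAK) at 48 h. Kif2c read 9.24, 9.10 and 8.91 with 4-OHT and 9.57, 9.62 and 9.53 with vehicle at 48 h (A, B, C), and the groups did not overlap. Its difference was -0.49 ± 0.34 (adjusted p = 1). With that block it was -0.49 ± 0.11 and the 1 gene of the 39 called at 48 h (adjusted p = 0.0107, 2.14% of all genes called lower in that fit). With the letter as a random effect 0 of 39 were called at 48 h (3.58% of all genes). With that block 0 of 39 were called at 6, 12, 18, 24 and 96 h (0%, 0.0271%, 0.974%, 1.98% and 14.3% of all genes).

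At 96 h the letters went different ways. The median difference of the 39 genes within a letter was -0.27 in A (35 of 39 below 0), -0.25 in B (35 of 39) and 0.19 in C (9 of 39). Arrays A and B alone, the first array number series, called 8 of 39 lower at 96 h (13.3% of all genes called lower), among them Cdk1 (-0.47, adjusted p = 0.0174) and Aurkb (-0.59, adjusted p = 0.00296). The series and the letter cannot be told apart here. At 48 h the median was 0.01 in A, -0.07 in B and -0.41 in C, and at 18 h 0.02, 0.09 and 0.30. The direction in C at 48 and at 96 h was thus opposite.

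**Figure D2:**
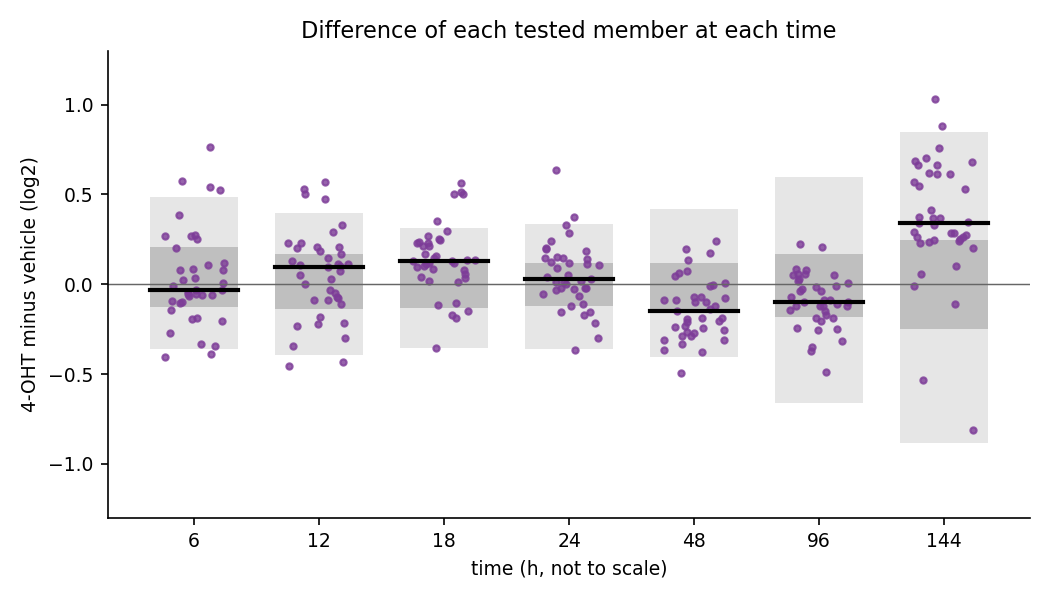
Difference between 4-OHT and vehicle (log2, vertical axis) of each of the 39 tested genes (points) at each time in hours (horizontal axis), with the genes' median as a black bar. Dark grey spans the middle 50% and light grey the middle 90% of all 11087 genes, and the genes' median leaves the dark band at 144 h (0.34) and at 18 and 48 h (0.13 and -0.15).

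CDK1, with its cyclins, is the kinase that starts mitosis. On the arrays of 6 h Cdk1 read 11.07, 10.99 and 11.24 with 4-OHT and 11.27, 11.38 and 11.26 with vehicle, each in the order A, B, C. At 12 h Cdk1 read 11.11, 11.04 and 10.73 with 4-OHT and 11.23, 10.68 and 11.24 with vehicle. At 6 h every 4-OHT array lay below every vehicle array, and at 12 h the agents overlapped. At 18 h Cdk1 read 11.25, 10.86 and 11.01 with 4-OHT and 11.23, 11.40 and 10.93 with vehicle, and at 24 h 11.22, 11.38 and 11.17 with 4-OHT and 11.40, 11.43 and 11.11 with vehicle. At 48 h Cdk1 read 10.99, 11.36 and 10.85 with 4-OHT and 11.30, 11.19 and 11.29 with vehicle. The agents overlapped at 24 and 48 h, and at 18 h as well. At 96 h Cdk1 read 10.02, 10.26 and 10.66 with 4-OHT and 10.61, 10.60 and 10.83 with vehicle, and at 144 h (A and C) 8.31 and 10.65 with 4-OHT and 7.997 and 10.44 with vehicle. At 96 h the highest 4-OHT array (C) lay above the vehicle arrays A and B, and at 144 h both A arrays lay far below both C arrays. The difference between the agents was -0.37 ± 0.38 at 96 h (SE, n = 3 each, limma adjusted p = 0.86) and 0.26 ± 0.46 at 144 h (n = 2 each, adjusted p = 0.904). Within A and within C at 144 h 4-OHT was higher, by 0.31 and 0.21. Its phosphatases CDC25B and CDC25C, which switch CDK1 on, had differences of -0.25 and 0.09 at 96 h, and Ccna2, the cyclin of S phase and early mitosis, -0.02, and none was called.

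PLK1 is the Polo kinase that drives centrosome maturation and many later steps of mitosis. On the arrays of 6 h Plk1 read 10.63, 10.47 and 10.40 with 4-OHT and 10.29, 9.85 and 9.64 with vehicle, each in the order A, B, C. At 12 h Plk1 read 9.76, 10.09 and 11.06 with 4-OHT and 9.25, 10.81 and 9.25 with vehicle. The values at 12 h spread widely and crossed, and at 6 h every 4-OHT array lay above every vehicle array. At 18 h Plk1 read 10.16, 11.03 and 9.02 with 4-OHT and 10.21, 9.60 and 8.85 with vehicle, and at 24 h 10.24, 9.76 and 9.48 with 4-OHT and 10.19, 10.03 and 9.74 with vehicle. At 48 h Plk1 read 9.75, 9.85 and 8.99 with 4-OHT and 9.83, 9.95 and 9.45 with vehicle. C was the lowest letter under both agents at 18, 24 and 48 h. At 96 h Plk1 read 9.62, 9.30 and 9.12 with 4-OHT and 9.36, 9.84 and 8.93 with vehicle, and at 144 h (A and C) 7.76 and 8.85 with 4-OHT and 6.83 and 8.41 with vehicle. The agents overlapped at both times, and within both letters of 144 h 4-OHT lay higher. The difference between the agents was -0.03 ± 0.44 at 96 h (SE, n = 3 each, limma adjusted p = 0.997) and 0.68 ± 0.54 at 144 h (n = 2 each, adjusted p = 0.64). Plk1 had the widest spread of these 5 genes at 12 and at 18 h, with SDs at 18 h of 1.01 (4-OHT) and 0.68 (vehicle).

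Aurora kinase B is the enzyme of the chromosomal passenger complex, which corrects faulty attachments of chromosomes to the spindle. On the arrays of 6 h Aurkb read 9.40, 9.38 and 9.52 with 4-OHT and 9.46, 9.88 and 9.98 with vehicle, each in the order A, B, C. At 12 h Aurkb read 9.54, 9.31 and 9.16 with 4-OHT and 9.63, 9.21 and 9.70 with vehicle. The agents overlapped at both times. At 18 h Aurkb read 9.58, 9.21 and 9.51 with 4-OHT and 9.41, 9.48 and 9.24 with vehicle, and at 24 h 9.03, 9.30 and 9.31 with 4-OHT and 9.14, 9.21 and 9.35 with vehicle. At 48 h Aurkb read 8.88, 8.96 and 8.89 with 4-OHT and 9.35, 9.18 and 9.33 with vehicle. At 48 h every 4-OHT array lay below every vehicle array. At 96 h Aurkb read 7.98, 8.14 and 8.81 with 4-OHT and 8.71, 8.58 and 8.69 with vehicle, and at 144 h (A and C) 5.98 and 8.67 with 4-OHT and 5.58 and 8.61 with vehicle. At 96 h the 4-OHT arrays A and B lay below all vehicle arrays and C above them, and at 144 h both A arrays lay far below both C arrays. The difference between the agents was -0.35 ± 0.44 at 96 h (SE, n = 3 each, limma adjusted p = 0.904) and 0.23 ± 0.54 at 144 h (n = 2 each, adjusted p = 0.936). Its partners in the complex had small differences at 96 h: survivin (Birc5) -0.11, INCENP (Incenp) -0.17 and borealin (Cdca8) -0.31. Aurka, the Aurora kinase of the spindle poles, had -0.12, and none of these was called.

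Topoisomerase II alpha (Top2a) untangles sister chromosomes. On the arrays of 6 h Top2a read 10.61, 10.44 and 10.66 with 4-OHT and 10.79, 10.93 and 10.99 with vehicle, each in the order A, B, C. At 12 h Top2a read 10.64, 10.51 and 10.74 with 4-OHT and 10.81, 10.39 and 10.96 with vehicle. At 6 h every 4-OHT array lay below every vehicle array, and at 12 h the agents overlapped. At 18 h Top2a read 10.72, 10.77 and 11.31 with 4-OHT and 10.67, 10.77 and 10.98 with vehicle, and at 24 h 11.09, 11.23 and 10.997 with 4-OHT and 10.98, 11.27 and 10.63 with vehicle. At 48 h Top2a read 10.85, 10.77 and 10.61 with 4-OHT and 10.74, 10.86 and 10.64 with vehicle. None of these times separated the agents. At 96 h Top2a read 10.10, 10.23 and 10.46 with 4-OHT and 10.41, 10.03 and 10.26 with vehicle, and at 144 h (A and C) 7.89 and 10.36 with 4-OHT and 7.64 and 10.10 with vehicle. At 144 h both A arrays lay far below both C arrays, and within each letter 4-OHT lay slightly higher. The difference between the agents was 0.03 ± 0.39 at 96 h (SE, n = 3 each, limma adjusted p = 0.997) and 0.25 ± 0.47 at 144 h (n = 2 each, adjusted p = 0.911). The condensin genes Smc2, Smc4 and Ncapd2 had differences of 0.23, -0.20 and -0.19 at 96 h, and none was called.

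FOXM1 is the transcription factor that activates most genes of this set, and its own gene is one of them. On the arrays of 6 h Foxm1 read 8.62, 8.64 and 8.85 with 4-OHT and 8.90, 8.84 and 8.95 with vehicle, each in the order A, B, C. At 12 h Foxm1 read 8.63, 8.34 and 8.12 with 4-OHT and 8.95, 8.27 and 8.77 with vehicle. Neither time separated the agents. At 18 h Foxm1 read 8.52, 7.98 and 8.18 with 4-OHT and 8.49, 8.63 and 8.64 with vehicle, and at 24 h 8.33, 8.53 and 8.67 with 4-OHT and 8.57, 8.68 and 8.78 with vehicle. At 48 h Foxm1 read 8.42, 8.45 and 8.29 with 4-OHT and 8.85, 8.57 and 8.69 with vehicle. At 18 and 24 h the values of the agents crossed, and at 48 h every 4-OHT array lay below every vehicle array. At 96 h Foxm1 read 7.99, 7.89 and 8.10 with 4-OHT and 8.41, 7.99 and 7.88 with vehicle, and at 144 h (A and C) 6.28 and 8.20 with 4-OHT and 5.79 and 8.20 with vehicle. Values of both agents crossed at 96 h, and at 144 h the C arrays lay slightly above those of 96 h while the A arrays lay far lower. The difference between the agents was -0.10 ± 0.35 at 96 h (SE, n = 3 each, limma adjusted p = 0.99) and 0.25 ± 0.43 at 144 h (n = 2 each, adjusted p = 0.904). The C arrays of 144 h read nearly the same under both agents.

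**Figure D3:**
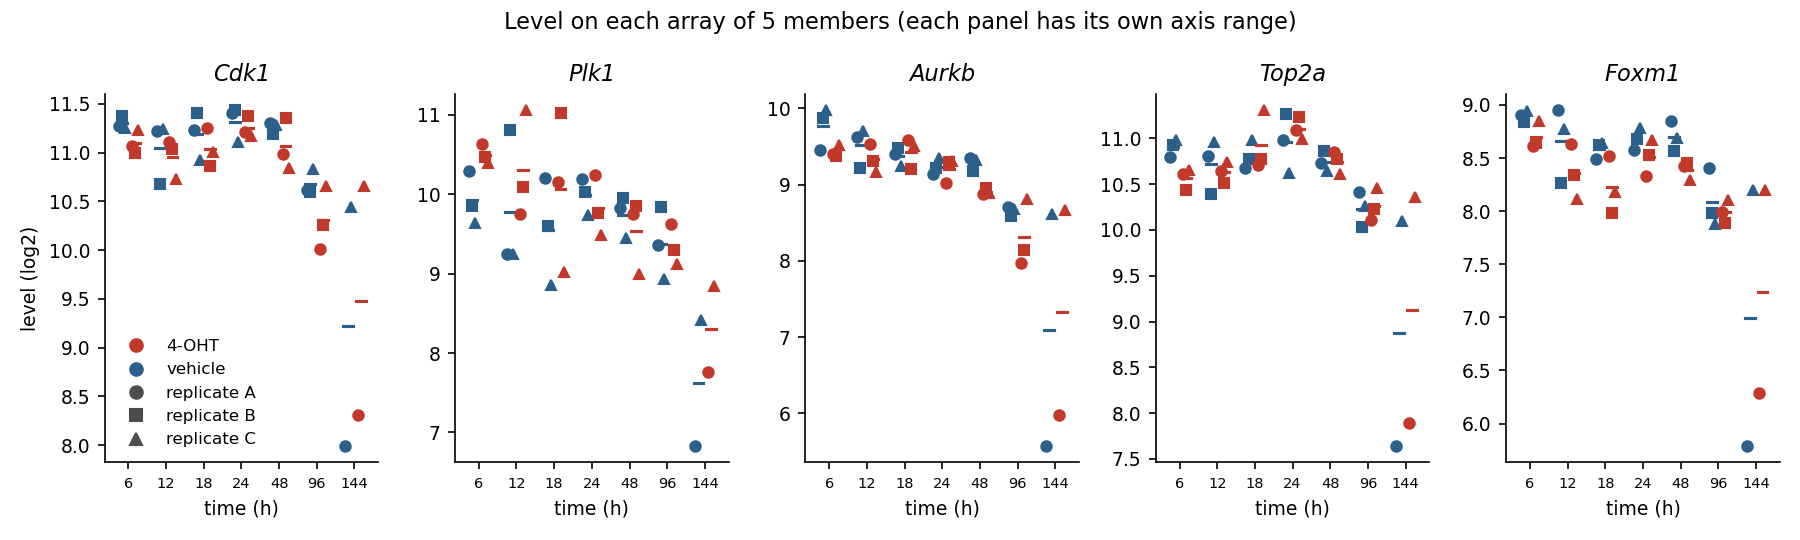
Normalized log2 level (vertical axis, its own range in each panel) of Cdk1, Plk1, Aurkb, Top2a and Foxm1 on each array by time in hours, with colour for the agent, shape for the replicate letter and a bar at each group's mean. In all 5 panels the lowest values are the A arrays of 144 h.

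The second question is how the division genes changed while the cultures aged from 18 to 96 h, times that lie in the same array number series. They were lower at 96 h under both agents, by a median of 0.36 with vehicle (35 of 39 lower) and 0.61 with 4-OHT (38 of 39 lower), beside medians over all genes of 0.01 and 0.02 in the other direction. In the fit to all arrays 0 of 39 were called with vehicle (7.2% of all genes; 7 of 39 at an unadjusted p under 0.05) and 2 fell with 4-OHT (3.84% of all genes called lower). With the letter as a block 2 fell with vehicle (3.02% called lower). With the 144 h arrays left out of the fit, 10 of 39 fell with vehicle (3.47% of all genes) and 15 with 4-OHT (5.84%), and 0 rose under either agent (6.89% and 9.52% of all genes called higher). Aurkb fell by 1.13 ± 0.17 with 4-OHT (adjusted p = 5.36e-05) and by 0.72 ± 0.17 with vehicle (adjusted p = 0.00768) in that fit. Top2a fell by 0.67 ± 0.16 and 0.58 ± 0.16, and Cdk1 by 0.73 ± 0.16 and 0.51 ± 0.16, 4-OHT first. The other genes called under both agents in that fit were Ttk (the checkpoint kinase MPS1), Ndc80 (the kinetochore's microtubule hook), Espl1 (separase, which cuts cohesin), the kinesins Kif4 and Kif11, and Ect2. With vehicle Ube2c (the ubiquitin-conjugating enzyme of the anaphase promoting complex) was called as well, and with 4-OHT Birc5, Cdca8, Cdca3, Kif2c, Ckap2 and Hmmr. In the fit to all arrays, second probes were called lower with vehicle for Cdk1, Cenpa (the centromere histone) and Smc2, and with 4-OHT for Ttk, Anln (anillin, of the cytokinetic ring), Kif4, Nusap1 (a spindle protein), Cenpa and Smc2, whose representative probes were not called.

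Ect2, the exchange factor that switches RhoA on for cytokinesis, fell most with 4-OHT. It read 7.83, 8.02 and 7.84 at 18 h and 6.34, 6.48 and 7.01 at 96 h with 4-OHT (A, B, C). With vehicle Ect2 read 7.81, 7.82 and 7.35 at 18 h and 6.65, 6.62 and 6.40 at 96 h. The 96 h arrays lay below all 18 h arrays under both agents. The difference was -1.28 ± 0.36 with 4-OHT (2.43-fold lower, adjusted p = 0.0195) and -1.11 ± 0.36 with vehicle (adjusted p = 0.0575). Hmmr, a spindle and hyaluronan-binding protein, was also called with 4-OHT, with 4.69, 5.14 and 4.53 at 18 h and 4.23, 4.22 and 4.17 at 96 h (adjusted p = 0.0205). Hmmr was detected on 1 of the 3 arrays of 18 h and on 0 of 3 at 96 h, so most of its values are background. They give no fold and no bound on it. Under median scaling 0 of 39 were called with 4-OHT (3.41% of all genes), and Ect2 had -1.03 (adjusted p = 0.345) and Hmmr -0.50 (adjusted p = 0.0834). Without the 4-OHT array A of 18 h 1 of 39 was called, and without its array B, or array A or B of 96 h, 0. Whether the 4-OHT effect itself changed from 18 to 96 h was tested as an interaction: the median of the 39 was -0.23, and 0 of 39 were called (0.37% of all genes; 0 at an unadjusted p under 0.05). In the first array number series alone, 36 of 39 fell with 4-OHT (23.4% of all genes called lower) and 20 with vehicle (20.9%), where 1 rose (26.5% called higher). In that series 5 interactions were called, each toward a larger fall with 4-OHT (6.62% of all genes called in that direction).

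**Figure D4:**
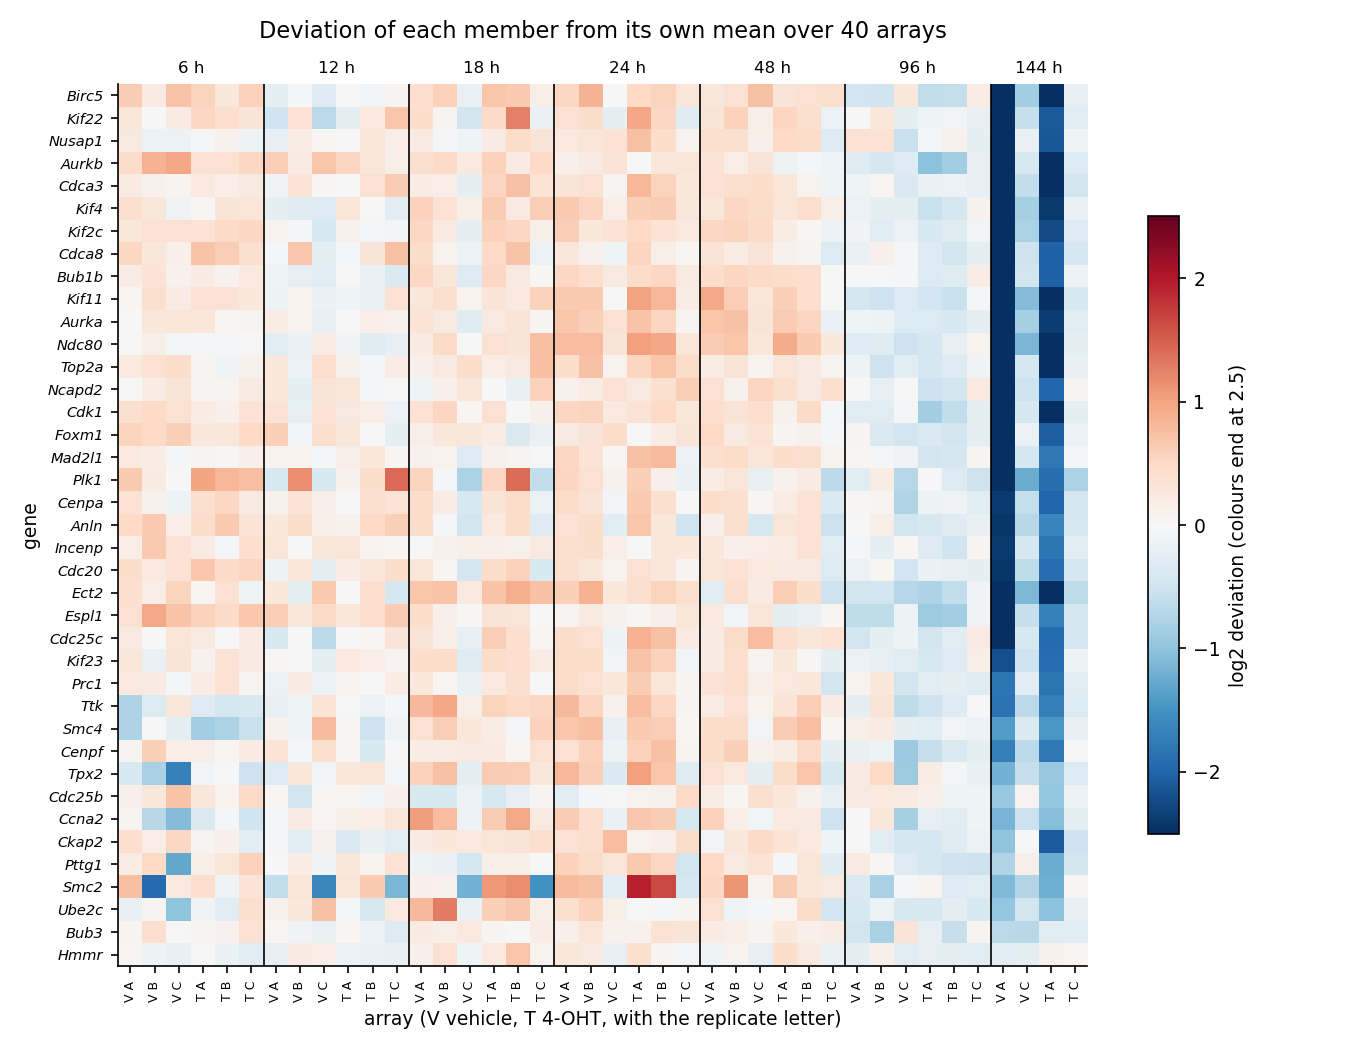
Log2 deviation of each of the 39 tested genes (rows) from its own mean over 40 arrays, with arrays in columns by time, agent (V vehicle, T 4-OHT) and letter, where red is above and blue below the mean. The columns of 96 h are pale blue under both agents and the A columns of 144 h dark blue in most rows.

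The third question is the last interval, 96 to 144 h, where the replicates part. Between arrays of the same letter, the median of the 39 genes was 1.67 log2 units lower at 144 h in A with 4-OHT (3.18-fold) and 2.42 lower in A with vehicle (5.35-fold). In C it was 0.16 lower with 4-OHT and 0.26 lower with vehicle. On both A arrays 32 of the 39 genes were more than 1 log2 unit lower, as were 2.11% of all 11087 genes. On both C arrays 0 of 39 were, as were 0.153% of all genes. On the vehicle array C alone 2 of 39 were, Birc5 (-1.14) and Bub3 (-1.02), and on the 4-OHT array C 0. These are differences between single arrays and have no test. Of the 32 genes, 26 had a promoter window and 22 of these held TTTGAA, and of the other 7 genes 6 had a window and 5 held it. The 7 exceptions in A were Ccna2, Bub3, Ube2c, Pttg1, Espl1, Hmmr and Smc2. Ccna2 and Ube2c were not detected on either A array of 144 h (detection p-values of 0.205 to 0.557), so their values there are only bounds. Hmmr was not detected on either A array, and Pttg1 not on that of 4-OHT. Of the 32 genes, Ttk, Cenpf and Ect2 were not detected on either A array of 144 h, and Cdc25c not on that of vehicle. Their values there are only bounds too. Espl1 was 2.13 lower with vehicle and 0.79 lower with 4-OHT. Bub3, which works in the checkpoint, read 7.998 at 96 h and 7.93 at 144 h with 4-OHT in A, and 7.75 and 7.54 with vehicle in A. In C Bub3 read 8.27 and 7.95 with 4-OHT and 8.53 and 7.52 with vehicle. It was thus lower by 0.07 and 0.20 on the A arrays and by 0.32 and 1.02 on the C arrays, 4-OHT first.

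By role, the medians on the vehicle array A relative to 96 h were -3.01 for the kinesins, -2.83 for the mitotic kinases and their partners, -2.62 for Foxm1 and -2.43 for the kinetochore genes. They were -2.13 for the chromosome structure genes, -2.13 for the anaphase promoting complex activators and targets, -2.08 for the checkpoint genes, -2.04 for the spindle and cytokinesis genes and -1.61 for the cyclin and CDK1 group. These medians set no order of the roles, since probes of low level lay less far below 96 h. Some groups also hold genes near background (Ccna2, Ube2c, Pttg1, Hmmr) or not detected on an A array of 144 h (Cdc25c, Ttk, Cenpf, Ect2). The median change, averaged over both A arrays, was -2.26 for the 26 genes with a mean log2 level of at least 8 and -1.27 for the 13 below, a split made after the data were seen. Across the 39 genes, measured on the same arrays, Spearman's rho of mean level and change was -0.596. On the 4-OHT array A the median was -1.87 for the kinesins and -1.27 for the checkpoint genes. That of the anaphase promoting complex group, -0.79, is only a bound, as it is the value of Pttg1, not detected there. On the vehicle array C they lay between -0.58 for the kinesins and 0.32 for Foxm1. Birc5 (survivin) was the gene furthest below its 96 h level on the vehicle A array. It read 9.40, 9.38 and 10.15 at 96 h (A, B, C) and 5.64 and 9.01 at 144 h (A, C) with vehicle. With 4-OHT Birc5 read 9.27, 9.28 and 10.06 and 7.04 and 9.67. The vehicle arrays of 144 h lay below all vehicle arrays of 96 h, C by the smaller margin.

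Over both letters, 15 of 39 genes fell with vehicle from 96 to 144 h (1.39% of all genes called lower) and 0 rose (0.695% called higher). The largest were Birc5 with -2.32 ± 0.54 (adjusted p = 0.0188), the chromokinesin Kif22 with -2.07 ± 0.52 (adjusted p = 0.0295), Cdca8 (borealin) with -1.81 ± 0.42, Kif4, a second chromokinesin, with -1.79 ± 0.41 and Kif11, the motor that pushes spindle poles apart, with -1.78 ± 0.42. With 4-OHT 0 of 39 were called (0.018% of all genes; 23 of 39 at an unadjusted p under 0.05), with a median of -0.83 against -1.33 with vehicle. These calls rested on replicate A. In settings chosen after the data were seen, without both A arrays of 144 h the vehicle count was 0, and without both C arrays it was 32 with vehicle (6.66% of all genes called lower) and 31 with 4-OHT (2.98%). Leaving out 1 vehicle array at a time gave 3 without A of 96 h (0.559% of all genes called lower), 2 without B of 96 h (0.649%), 0 without A of 144 h and 31 without C of 144 h (5.44%), and with 4-OHT 24 without C of 144 h (1.57%). Under median scaling the middle of all probes shifted by 0.17, the genes' median with vehicle was -1.10, and 0 were called (0.613% of all genes). The change of the agents' difference from 96 to 144 h, a contrast added after the data were seen, called 0 of 39 (0.018% of all genes). At an unadjusted p under 0.05 it was 0, and with the replicate block 1 was called higher (0.505% of all genes).

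**Figure D5:**
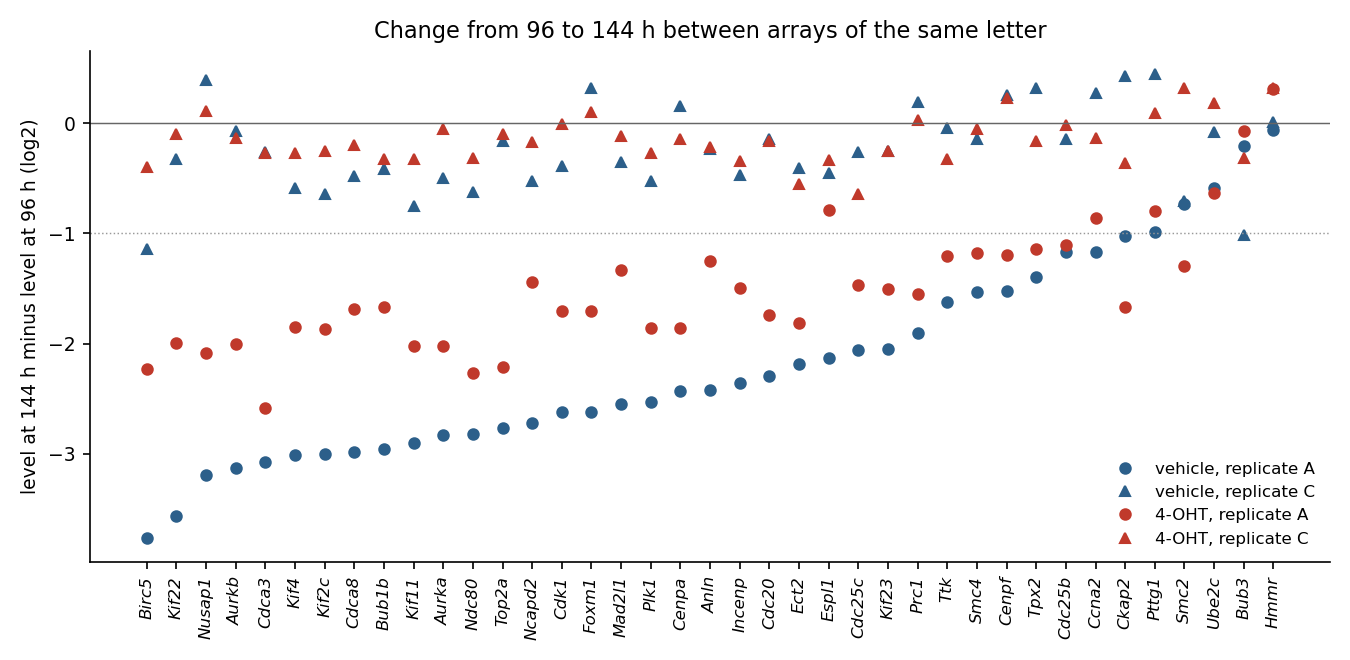
Level at 144 h minus level at 96 h on the array of the same agent and letter (log2, vertical axis) for each of the 39 tested genes, ordered by the vehicle array A, with colour for the agent and shape for the letter, and the dotted line is at -1. Circles (replicate A) lie below -1 for most genes, and most triangles (replicate C) lie nearer 0, with 2 vehicle triangles (Birc5 and Bub3) below -1.

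At 144 h both agents were compared within these unlike letters. The median difference, 4-OHT minus vehicle, was 0.34 over the 39 genes, with 35 above 0, from -0.81 for Ckap2 (a spindle-associated protein) to 1.03 for Birc5. The median within A was 0.43 and within C 0.28, and 30 of 39 genes were higher with 4-OHT in both letters, 4 lower in both and 5 opposite. The kinesins had a median of 0.70 (0.35 to 0.88) and the mitotic kinases with their partners 0.57 (0.23 to 1.03). In the fit without pairing, where the gap between the letters enters the error, 0 were called and the smallest adjusted p was 0.112 (Ckap2). With the letter as a block 12 of 39 were called, 11 higher (9.71% of all genes called higher in that fit) and 1 lower (10.1% called lower). Birc5 differed by 1.03 ± 0.16 (adjusted p = 5.75e-05), Kif2c by 0.66 ± 0.14 (adjusted p = 0.00136), Kif11 by 0.76 ± 0.17 (adjusted p = 0.00323), the condensin gene Ncapd2 by 0.66 ± 0.16 (adjusted p = 0.00477) and the checkpoint gene Bub1b by 0.62 ± 0.16 (adjusted p = 0.00896). Kif4, Kif22, Aurka, Mad2l1 (a checkpoint protein), Ndc80 and Espl1 were the other genes called higher. The error of this fit is pooled over the letter pairs of all times. Within A and within C, Birc5 differed by 1.41 and 0.65, Kif22 by 1.48 and 0.28 and Espl1 by 1.07 and 0.16. The letters were closer for Aurka (0.58 and 0.56) and Kif11 (0.81 and 0.71). Ckap2 was the 1 called lower, with -0.81 ± 0.20 (adjusted p = 0.00577). It read 8.07 and 9.64 with 4-OHT and 9.15 and 10.17 with vehicle at 144 h (A, C), lower with 4-OHT in both letters. Ckap2 showed no such gap at 96 h, where it read 9.74, 9.86 and 10.003 and 10.18, 9.89 and 9.74. With the letter as a random effect (correlation 0.419) 1 of 39 was called, lower (9.06% of all genes called lower), and 0 higher. With the array number series as a block 1 of 39 was called, lower. No share of all genes was counted in that fit, so this count says nothing about the set. Leaving out 1 array set unlike letters against each other and gave 9 higher without 4-OHT A (3% of all genes called higher), 1 lower without vehicle A (4.56% called lower), 1 lower without 4-OHT C (3.42% called lower) and 21 higher without vehicle C (5.35% called higher). At the same time the mean level of 10 oligodendrocyte precursor and premyelinating markers was 10.13 to 10.75 with 4-OHT and 7.49 to 7.93 with vehicle. Of these 10, 6 were called higher (4.21% of all genes called higher). For the 4 tested myelin markers the mean level was 8.65 to 9.70 with 4-OHT and 5.83 to 6.55 with vehicle. For 7 astrocyte markers it was 6.55 to 7.09 and 7.63 to 7.98, 4-OHT first. The part of such cells in the result was not tested.

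Among other genes of the programme, 66 of 80 further G2 and mitosis genes were tested, and their medians followed those of the set: -0.10 at 96 h and 0.37 at 144 h for 4-OHT minus vehicle, and -1.19 from 96 to 144 h with vehicle. Sapcd2, whose product acts in spindle orientation, was higher with 4-OHT than with vehicle by 0.78 ± 0.21 at 96 h (limma, adjusted p = 0.0209). At 144 h it was higher by 1.73 ± 0.25 (adjusted p = 1.72e-05). The mean of Sapcd2 at 96 and 144 h was 9.73 and 9.54 with 4-OHT and 8.95 and 7.81 with vehicle. Fam83d, a spindle protein, was higher with 4-OHT than with vehicle by 1.04 and Lmnb1, lamin B1, by 0.91 at 144 h. Called higher were thus 1 of 66 at 96 h (5.69% of all genes called in either direction) and 3 of 66 at 144 h (4.21% of all genes called higher). These counts do not set the list apart from all genes. Compared with vehicle, 0 of the 66 were called lower with 4-OHT at any time. From 96 to 144 h with vehicle 27 of 66 fell (1.39% of all genes called lower), led by the centromere gene Cenpn (-1.99), Spag5 (-1.81), Kif15 (-1.78), Shcbp1 (-1.77) and Cdca2 (-1.75). Without both A arrays 0 of the 66 were called in that interval, and at 144 h Sapcd2 alone (1.22 ± 0.32, adjusted p = 0.0296). From 18 to 96 h with 4-OHT 9 of 66 fell (3.84% of all genes called lower), led by Melk (-1.23), Ckap2l (-1.15), Cenpm (-1.12), Trip13 (-1.08) and Cenph (-1.001). With vehicle 2 of 66 fell (2.06% called lower), Trip13 (-0.86) and Lmnb1 (-0.70).

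Of 22 regulators of the programme (B-MYB, MuvB, pocket proteins, E2F and NF-Y genes) 19 were tested. E2f2, an activating E2F, was higher with 4-OHT than with vehicle by 1.41 ± 0.32 at 48 h (limma, adjusted p = 0.0166). The difference was 1.65 ± 0.32 at 96 h (adjusted p = 0.00103) and 1.97 ± 0.39 at 144 h (adjusted p = 0.00112), and 1.78 there without both A arrays. The mean of E2f2 at 48, 96 and 144 h was 9.05, 8.88 and 8.68 with 4-OHT and 7.63, 7.23 and 6.71 with vehicle. E2f5, a repressing E2F, was lower with 4-OHT than with vehicle by 0.80 ± 0.19 at 96 h (limma, adjusted p = 0.00852). E2f1 was lower by 0.88 ± 0.27 at 96 h (adjusted p = 0.0497), with overlapping groups. Mybl2 (B-MYB) was called in the last interval with vehicle, where it fell by 1.99 ± 0.36 (adjusted p = 0.00281), with Rbl1 (-1.29), E2f1 (-1.23) and Rbbp4 (-1.02), and without both A arrays 0 of the 19 were called there. From 18 to 96 h 3 of the 19 fell with 4-OHT (3.84% of all genes called lower), E2f1 (-1.09), Nfya (-0.85) and Tfdp1 (-0.73). With vehicle 1 fell (2.06% called lower), Tfdp1 (-0.70). Of 16 further anaphase promoting complex genes 0 were called between the agents at any time (0% at 6 h to 8.03% at 144 h of all genes). Their median from 96 to 144 h on the A arrays was 0.13 with 4-OHT and -0.10 with vehicle. From 18 to 96 h 2 of these genes fell with 4-OHT (3.84% of all genes called lower), Anapc15 (-0.90) and Cdc27 (-0.78). With vehicle 1 fell (2.06% called lower), Anapc1 (-0.64). Counts this small do not set the regulators or these genes apart from all genes. The S phase genes, of which 41 of 44 were tested, lay lower on both letters: the medians from 96 to 144 h were -0.82 (4-OHT) and -1.70 (vehicle) in A and -0.54 and -0.995 in C. Between the agents 2 of the 41 were called higher with 4-OHT at 144 h (4.21% of all genes called higher). They were the helicase subunits Mcm5 (1.38) and Mcm6 (0.92), and 0 were called at the other times. From 96 to 144 h 28 of the 41 fell with vehicle (1.39% of all genes called lower), and without both A arrays 0 were called there or between the agents at 144 h. From 18 to 96 h 18 of the 41 fell with 4-OHT (3.84% of all genes called lower) and 5 with vehicle (2.06%).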

How the data were processed

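RNA of 40 mouse neural stem cell samples was hybridized to Illumina MouseWG-6 BeadChips. The authors deposited a linear bead intensity and a detection p-value per probe and array, and a second table of log2 values that they made with quantile normalization in lumi, per the labels' design text. GenomeStudio and lumi are named in the submitters' processing notes, and their versions are not given in the sources used here. Of 45281 probes, 21 with rows out of step with the header were left out, 34872 had 1 gene symbol in the array annotation, 18 had several and 10370 none, and 34794 were found in RefSeq.

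The deposited intensities were corrected and quantile normalized with neqc of limma 3.58.1 (R 4.3.3), with background taken from the detection p-values, an offset of 16 and log2. Each of the 14 groups got 1 mean in 1 limma fit with a variance trend (26 residual degrees of freedom). All tests were two-sided. P-values were adjusted by Benjamini and Hochberg's method over 21740 probes, and an adjusted p under 0.05 was a call. The fit was tested on simulated data. Alternatives were median scaling, the authors' log2 values, other filters, the replicate letter or array series as a block, the first series alone, each time alone and leaving out single arrays. The replicate letter was taken to pair the agents at 18 to 96 h, where all same-letter residual correlations between 4-OHT and vehicle arrays ran from 0.367 to 0.783. Yet the best match of B was A at 18 and 24 h, and A and B matched each other at 48 h. Only C was its own best match at each of these times, so pairing within A and B is uncertain. At 6 and 12 h the same-letter correlations ran from -0.143 to 0.421, and at 144 h both of the pairs gave 0.671, too few to decide. The correlations do not tell the letter from the array series.

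The 39 genes and all gene lists were chosen with earlier results of these data known. Values on every array are given for a fixed group (Cdk1, Plk1, Aurkb, Top2a, Foxm1; Ccnb1 had no probe). In comparisons of times, up to 5 called genes of the largest difference are named, and up to 5 in each direction of each further list. Kif2c, Ckap2, Bub3, the extremes of a range and the genes called only in an alternative fit were named after their values were seen. Precision is limited by how few arrays a group has.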

Additional observations from a re-analysis of the deposited data

Results flagged for a closer look

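For 5 genes all 4-OHT arrays lay on one side of all vehicle arrays at one time. At another time they lay on the other side. How many of all genes did so was not counted, so these 5 genes are not set apart from others by it. Cdc20 had a difference of 0.20 at 6 h and of -0.27 at 48 h. Ckap2 had -0.39 at 6 h and 0.10 at 18 h, and Cdca3 had 0.50 at 18 h and -0.31 at 48 h. Pttg1 had 0.35 at 18 h and -0.49 at 96 h, and Cdc25b had 0.33 at 24 h and -0.25 at 96 h. None of these single differences passed (limma, adjusted p of 0.579 or more). For Pttg1 the change from 18 to 96 h was tested and did not pass (-0.84, adjusted p = 0.913). The other differences between times were not tested.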

How the results depend on the processing

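The count of 0 genes called between the agents held under all alternatives tried at 6 and 12 h, and under all but 1 at each time from 18 to 96 h. The first array series alone called 2 at 18 h, 1 at 24 h and 8 at 96 h (13.3% of all genes called lower at 96 h). The replicate block called 1 at 48 h (2.14% called lower). A count with no share of all genes beside it says nothing about the set, as the fits call different numbers of genes. At 144 h the count was 12 with the replicate block, 11 higher and 1 lower (9.71% and 10.1% of all genes). It was 1 with the array series as a block. With the letter as a random effect (correlation 0.419) it was 1, lower (9.06% called lower). The first series alone, and fits without both arrays of a letter or without 1 array of 144 h, leave 1 array in a group there. Their counts between the agents at 144 h are not repeated here, and those given earlier decide little. The F test called 5 with the replicate block (21.4% of all genes). From 18 to 96 h with vehicle the count was 3 with any probe counted, 2 with the authors' values and 1 with the stricter filter. It was 2 with the replicate block (3.02% of all genes called lower) and 2 with the series as a block. The first series alone called 21 (20.9% of all genes called lower and 26.5% higher). Without the C arrays of 96 h it was 1, without the 144 h arrays in the fit 10 (3.47% called lower), and without single arrays 0 to 4. With 4-OHT it was 8 with any probe, 0 under median scaling (3.41% of all genes), 1 with the stricter filter and 6 with the series as a block. The first series alone called 36 (23.4% called lower). Without the C arrays of 96 h it was 4, without the 144 h arrays 15 (5.84% called lower), and without single arrays 0 to 3. From 96 to 144 h with vehicle it was 0 under median scaling, 36 in the first series, 0 without both A arrays, 32 without both C arrays, 23 with the random effect and 0 to 31 without single arrays. With 4-OHT it was 37 in the first series, 31 without both C arrays and 0 to 24 without single arrays. The interaction from 18 to 96 h gave 5 in the first series, and that from 96 to 144 h gave 1 with the replicate block, 17 in the first series and 0 to 6 without single arrays. The replicate block changed no other count of calls by over 1.5 times. The cause of these shifts was not tested.

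Single genes not called changed sign under some settings. At 96 h Plk1 gave 0.065 under median scaling and -0.25 to 0.20 without single arrays, Top2a -0.054 in the first series and without the C arrays, and -0.071 to 0.12 without single arrays, and Foxm1 -0.20 to 0.063. At 144 h leaving out single arrays gave -0.96 to 1.49 for Cdk1, -0.10 to 1.47 for Plk1, -1.29 to 1.75 for Aurkb, -0.98 to 1.49 for Top2a and -0.96 to 1.45 for Foxm1. Of the values of called genes under alternatives 182 stayed called, 89 did not and 0 changed sign. Median scaling shifted all probes by 0.34 (6 h) and -0.11 (144 h) in their median, and the 39 genes then lay 0.28 and 0.33 above it. Genes near background (Ccna2, Ube2c, Pttg1, Hmmr) cannot show a fall of their full size. Nor can those not detected on an A array of 144 h (Cdc25c, Ttk, Cenpf, Ect2) in the last interval.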
